A study of Homo sapiens with 12 samples.

Results

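Open chromatin of U2OS cells with a FOXA2 protein that lacks its CTD was compared with that of wild-type cells in 4 ATAC-seq peak lists. Of these, 2 were of cells induced to make the truncated protein and 2 of wild-type cells. All peaks of the 4 lists on chromosomes 1 to 22 and X were merged where they overlapped by at least 1 bp, which gave 183468 regions. A region was counted as gained when both lists of the truncated protein and neither wild-type list had a peak in it, and as lost in the opposite case. By this rule 23487 regions were gained, 12.8% of all, and 175 were lost, 0.0954% of all. A further 9723 regions were open in all 4 libraries.

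The series holds 12 ATAC-seq samples of U2OS, a human osteosarcoma cell line, in 6 groups of 2 samples. The truncated construct, Tet-on FOXA2dCTD in the labels, was switched on by 4 days of doxycycline, at 500 ng/ml. The wild-type samples have no entry for genotype or treatment, while the protocol text they share with all samples names the same doxycycline treatment, so whether they received it is not known. The labels call the 2 samples of a group biological replicates and do not say whether a line was 1 clone. ATAC-seq maps open chromatin from the places where the Tn5 transposase can insert. The full-length FOXA2 lists, and the lists of the SOX2 experiment with a wild type of its own, are used below only as further libraries in which a region was or was not called. With 2 samples against 2, the smallest exact two-sided permutation p is 0.333, so every comparison of the groups is a description without a test.

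FOXA2 is a forkhead transcription factor of definitive endoderm, liver, lung and floor plate. Its forkhead domain resembles a linker histone and can bind its motif on nucleosomes, for which the FOXA proteins are called pioneer factors. Bound FOXA is followed by local opening of chromatin and by binding of other factors, mostly at enhancers that lie far from gene starts. CTD and NTD are the parts of the protein on the carboxy and amino sides of that domain. U2OS is of mesenchymal origin, and the liver and endoderm genes that FOXA2 serves are not part of its program.

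Of the gained promoters, 5 are shown because they carry the contrast in sequence that follows: STRIP2, the highest ranked gained region that overlaps a promoter window of the sequence table, has no forkhead match, MAGI1 and FECH are the highest ranked with a forkhead match inside the gained region, and DCLRE1C and F3 are the highest ranked with an AP-1 match there. Each sequence is the 250 bases before the gene's start, 5′ to 3′, from the RefSeq promoter table (GRCh38.p14), and capitals mark the matches. STRIP2 is chr7:129434182-129434431 (plus strand), MAGI1 is chr3:66038919-66039168 (minus strand), FECH is chr18:57586703-57586952 (minus strand), DCLRE1C is chr10:14954433-14954682 (minus strand) and F3 is chr1:94541760-94542009 (minus strand).
STRIP2: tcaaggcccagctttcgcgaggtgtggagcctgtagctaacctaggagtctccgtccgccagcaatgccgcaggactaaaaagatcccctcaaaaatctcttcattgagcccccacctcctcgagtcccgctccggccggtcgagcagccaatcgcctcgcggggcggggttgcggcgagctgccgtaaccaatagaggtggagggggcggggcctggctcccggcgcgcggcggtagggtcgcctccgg
MAGI1: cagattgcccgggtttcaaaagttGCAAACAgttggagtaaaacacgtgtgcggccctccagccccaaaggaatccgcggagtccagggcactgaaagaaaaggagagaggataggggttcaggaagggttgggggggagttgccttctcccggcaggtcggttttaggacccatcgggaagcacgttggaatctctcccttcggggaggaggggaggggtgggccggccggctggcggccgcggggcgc
FECH: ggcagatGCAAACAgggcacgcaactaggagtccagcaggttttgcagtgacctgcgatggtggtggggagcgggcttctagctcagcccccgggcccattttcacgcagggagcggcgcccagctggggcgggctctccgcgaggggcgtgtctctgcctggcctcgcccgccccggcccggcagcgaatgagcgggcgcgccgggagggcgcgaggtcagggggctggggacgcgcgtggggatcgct
DCLRE1C: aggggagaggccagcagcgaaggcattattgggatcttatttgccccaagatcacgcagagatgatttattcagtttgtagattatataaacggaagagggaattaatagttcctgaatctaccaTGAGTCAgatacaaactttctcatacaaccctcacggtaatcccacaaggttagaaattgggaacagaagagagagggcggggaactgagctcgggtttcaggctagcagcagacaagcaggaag
F3: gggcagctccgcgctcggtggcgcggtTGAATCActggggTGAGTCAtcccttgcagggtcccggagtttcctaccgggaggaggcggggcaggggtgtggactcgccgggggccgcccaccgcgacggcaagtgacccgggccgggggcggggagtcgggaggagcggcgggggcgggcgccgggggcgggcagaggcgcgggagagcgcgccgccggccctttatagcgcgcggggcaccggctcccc

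The searched forkhead letters were TGTTTAC or TGTTTGC and the AP-1 letters TGANTCA, both on either strand, and the TEAD letters were GGAATG on either strand. Over the 300-base promoters of the table, 250 before the start and 50 after it, a forkhead match was present in 52 of 992 promoters that a gained region overlapped, or 5.24%. The share was 4.32% of promoters open in all 4 libraries and 5.69% of all 15811 promoters. The 95% Wilson interval of the gained share, 4.02 to 6.81%, held the share of all promoters. AP-1 letters were in 5.65% of gained and 5.76% of all promoters, and TEAD letters in 10.1% of gained and 11.7% of all.

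Base composition moved with these shares. The median GC content was 67.2% in gained promoters, 64.3% in those open in all 4 libraries and 56.3% in promoters without a peak. Among promoters with at most 50% GC, AP-1 letters were in 17 of 72 gained promoters, or 23.6% (15.3 to 34.6%), against 12% of all promoters of that class. Forkhead letters were in 5 of the 72 gained promoters of that class, or 6.94%, against 11.4% of all. From 50 to 65% GC, AP-1 letters were in 6.34% of gained and 6.22% of all promoters, and above that in 2.87% and 2.55%. In these classes forkhead letters, too, were in a larger share of gained than of all promoters, 7.44% against 6.02%, then 3.59% against 2.86%. This is the opposite of their order in the class with at most 50% GC. DCLRE1C, which encodes the nuclease Artemis of DNA end joining, has 45.6% GC in the bases shown and its AP-1 letters in capitals above. F3, the gene of tissue factor, has 78.0% GC there and 2 AP-1 matches, the first 223 bases before the start. A match is a description of letters, not of binding.

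The peak lists differed in length before any comparison. Wild type replicates 1 and 2 had 19862 and 25088 peaks, and the truncated FOXA2 replicates 1 and 2 had 78820 and 146854. The lowest deposited −log10 p, the caller's measure of a peak's strength, was 3.44 and 5.43 in the wild-type lists and 2.01 in both lists of the truncated protein. Longer lists reach weaker peaks, so the count of gained regions moves with list length, and read depth is not known from peak lists.

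With the 19862 strongest peaks of each list, 2921 of 42958 merged regions were gained, 6.8%, and 1694 were lost, 3.94%. Between a single library of each group at equal length, the regions called in the truncated library only numbered 9963 to 11420 over the 4 pairs, and those called in the wild type only 9983 to 11110, close because the lists are of equal length. At equal length the lists of the truncated protein had 5199 and 5095 regions called in that library alone, and the wild-type lists had 6967 and 6010. The 2 wild-type lists also differ in make: replicate 2 has no mitochondrial peak, and the other 3 lists have 2 each. The part of this difference in the excess of gains was not tested.

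Some features of the wild-type lists bear on their labels. The peak names of wild type replicate 1 start with dc0 and those of the truncated protein with dc4, prefixes that the labels do not explain, so whether this list is of the same kind of cells as replicate 2 is not known. Without it 27326 regions were gained and 3860 lost. Both wild-type lists also have a peak within FOXA2 where the induced libraries have theirs, and the wild-type and SOX2 lists of the other experiment have none at that position. The groups are called here as the labels call them.

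**Figure D1:**
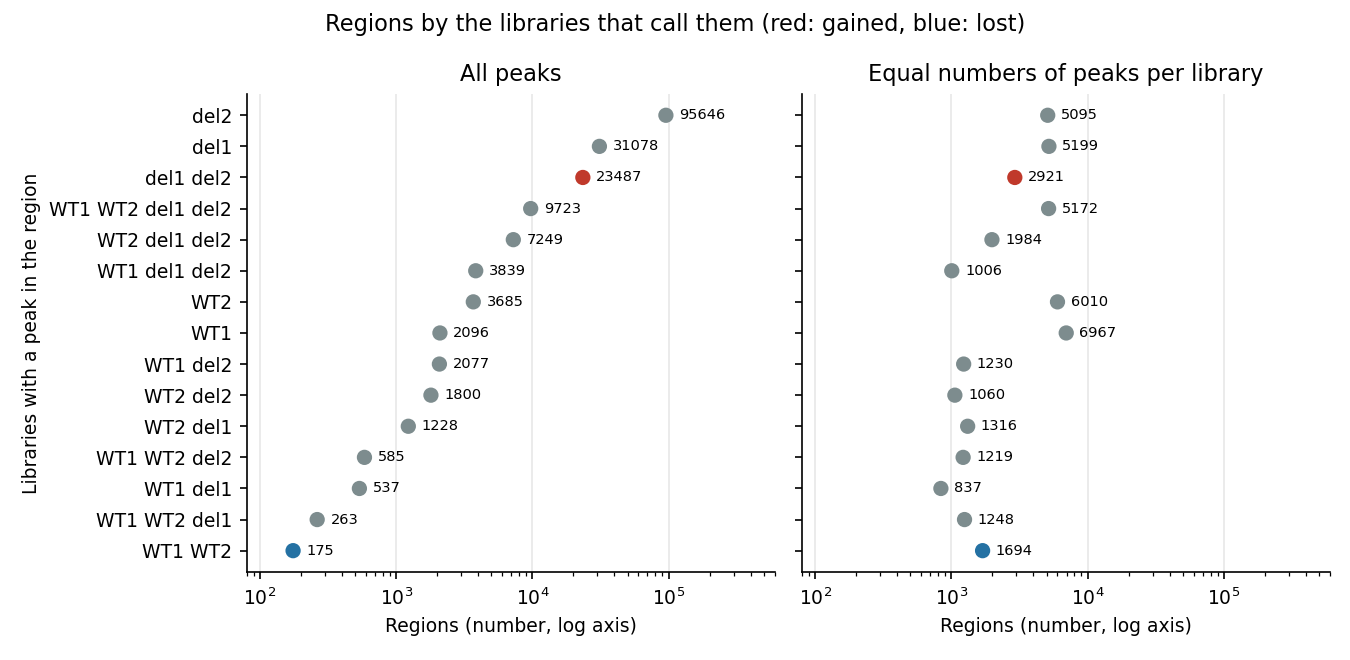
Number of merged regions (log axis) for each combination of libraries with a peak there, with whole lists (left) and with the 19862 strongest peaks of each list (right); WT1 and WT2 are the wild-type libraries, del1 and del2 those of FOXA2 without CTD. Gained regions (red) number 23487 and 2921, and lost regions (blue) 175 and 1694.

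Gained regions ranked in the middle of their lists and above. Their median width was 572 bp, with 333 to 795 bp from the 10th to the 90th percentile, against 289 bp for all regions and 818 bp for regions open in all 4 libraries. A gained region merges at least 2 peaks by rule, while most of all regions hold a single peak, and with only 1 list of the truncated protein the median was 257 or 347 bp. The single peaks in gained regions had medians of 408 and 443 bp, beside 339 and 271 bp for all peaks of the same lists. Gained peaks had a median fold enrichment over local background of 3.90 in replicate 1 and 4.09 in replicate 2, as deposited by the authors. In regions open in all 4, the same lists had 4.93 and 5.65. The gained peaks' median percentile rank by −log10 p was 55.3 in replicate 1 and 69.9 in replicate 2, and 45.2% of them in each list reached a −log10 p of 5.43, the threshold of the strictest list. Width followed rank: the median was 482.5 bp for the 4072 regions whose lower rank was at most the 20th percentile and 690.0 bp for the 2915 above the 80th.

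The 12 highest regions, ranked by the lower of their percentile ranks in both lists, had folds of 8.71 to 13.6 in replicate 1 and of 8.58 to 12.4 in replicate 2. None of these, and 1 of the 20 highest, was within 1 kb of a protein-coding gene start, where 5.25% of all gained regions lay, 4 of the 12 lay in a gene and 5 lay over 100 kb from any. All 12 were called in both full-length FOXA2 lists. Of all gained regions 70.9% and 54.7% were called in these 2 lists, and of those above the 80th percentile 92.7% and 85.3%. The same shares were 36.9% and 26.9% for all regions, and 94.8% and 91.6% for regions open in all 4 libraries. The full-length lists hold 161136 and 57946 peaks. The part of list length and peak strength in these shares was not tested. The wild type of the SOX2 experiment had an entry at none of the 12. All 12 were also gained at equal list length, which their ranks fix in advance. A gained region has no wild-type peak, and the cut keeps the peaks that rank highest by −log10 p.

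The highest region lies in MGAT4C, a gene of the N-glycan branching enzyme family, at chr12:86502394-86503847. It is 1454 bp wide, with a fold of 8.71 in replicate 1 and 8.58 in replicate 2. The region with the largest folds, 13.6 and 12.4, lies at chr4:136373860-136374607, 1.14 Mb from the protocadherin gene PCDH18. Another desert region, 1.07 Mb from FAM135B on chromosome 8, had 9.58 and 8.99.

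Genes of tetrahydrobiopterin metabolism appear at both ends of that pathway. GCH1, which encodes GTP cyclohydrolase, the entry enzyme, holds a gained region at chr14:54880226-54881043 with folds of 10.1 and 11.7. QDPR, whose enzyme recycles the cofactor, has a region 26.3 kb away with 9.52 and 11.7. That both genes belong to the pathway was noticed after the ranking and was not tested.

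RFX3, a transcription factor of ciliated cells, holds a region in the gene body with folds of 10.6 and 9.52. STT3B, a catalytic subunit of the oligosaccharyltransferase, has a region with 10.3 and 9.38, and this region alone among the 12 passed the IDR threshold in the SOX2-FOXA2 CTD fusion list. The remaining regions lay 35.0 kb from PURG, 32.6 kb from PLEKHG3, 359 kb from the kinetochore gene NUF2, 470 kb from the neuronal splicing factor gene NOVA1 and 382 kb from the X-linked spindlin gene SPIN4.

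Few gains were at promoters. A gained region came within 1 kb of a protein-coding gene start in 1234 cases, 5.25%, against 6.26% of all regions, 38.3% of regions open in all 4 libraries and 9.14% of lost ones. The median distance to a start was 102393 bp for gained regions, 99953 bp for all and 25065 bp for those open in all 4. At equal list length the contrast was larger: 4.21% of gained, 16.0% of all, 22.8% of lost and 44.1% of shared regions were within 1 kb of a start.

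The 2 libraries of the truncated protein did not match in this measure. At equal list length, 3.33% of the 5199 regions called in replicate 1 alone were at a start and 11.4% of the 5095 called in replicate 2 alone. In single pairs at equal length, regions of the truncated library only were less often at a start than those of the wild type only in 3 of 4 pairs (4.39 against 18.4%, for replicate 1 with replicate 1). Between the second replicates the order was the opposite, 13.7 against 11.2%. Of gained regions, 44.6% had their centre in a protein-coding gene, near the 42.6% of all regions, and 19.5% were over 500 kb from a start, near the 20.2% of all.

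**Figure D2:**
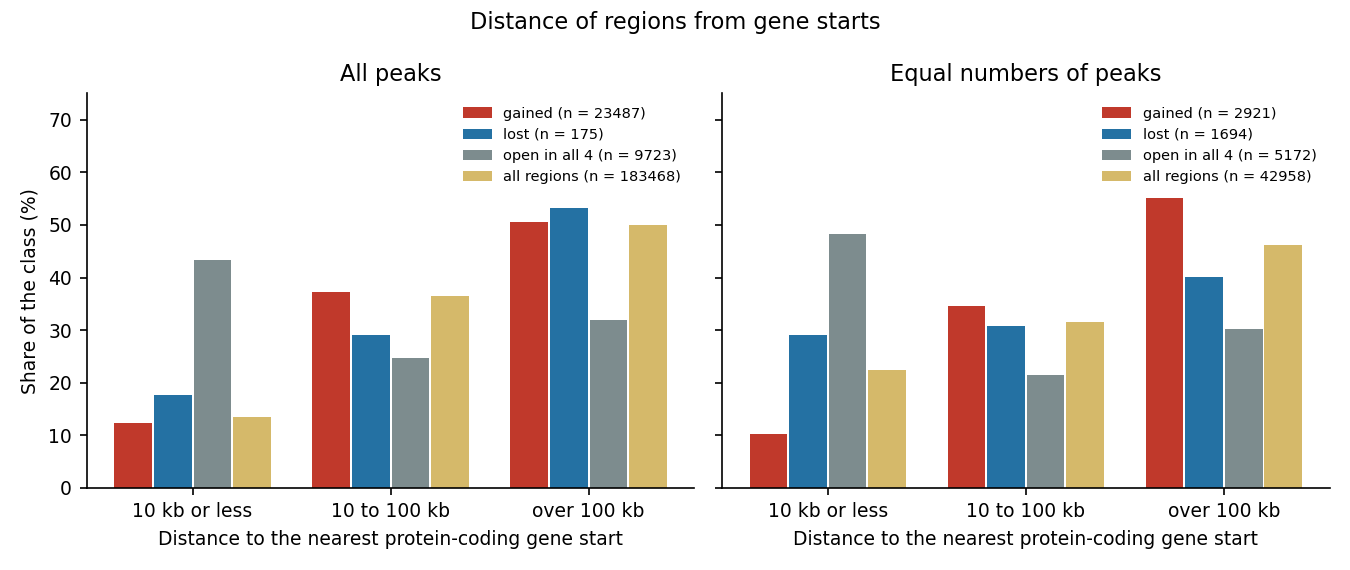
Share of gained, lost and shared regions, and of all regions, by distance to the nearest protein-coding gene start, with whole lists (left) and at equal list length (right). Regions open in all 4 libraries lie most often within 10 kb, and 50.5% of gained regions lie over 100 kb away with whole lists and 55.2% at equal length.

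Gained promoters were led by MOBP, the gene of a myelin protein of oligodendrocytes, at chr3:39468489-39469447. Its folds were 11.3 in replicate 1 and 8.78 in replicate 2, with 7.93 and 20.1 in the full-length lists, and it had no entry in any list of the SOX2 experiment. LARP1, whose protein binds mRNAs of the translation machinery, had a region 869 bp from the gene with 5.02 and 5.56 and likewise no such entry. These 2 were the only regions of the 12 highest at a start without an entry in the second wild type.

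The other 10 all passed the IDR threshold of 0.05 there. They were at STRIP2 (6.77 and 6.76), a subunit gene of the STRIPAK phosphatase complex, at HHAT (8.27 and 6.19), the Hedgehog acyltransferase gene, and at BCAR3, UNG, IFT46, ZXDA, PYGL, TMEM232, ZNF772 and ZNF816. UNG encodes uracil-DNA glycosylase, IFT46 a subunit of the ciliary transport complex and PYGL the liver glycogen phosphorylase. Folds of these 8 were within 5.24 to 7.29 in both lists. The promoters printed above were of similar strength: MAGI1, a junction scaffold gene, had 5.74 and 4.72, FECH, the ferrochelatase gene of haem synthesis, had 5.04 and 5.56, and F3 had 5.36 and 4.96.

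Of the 20 highest regions at a start, 6 were at genes named ZNF: ZNF772, ZNF816, ZNF585A, ZNF708, ZNF383 and ZNF274, a class singled out after these values were seen and therefore a description of the same calls. The wild type of the SOX2 experiment had an entry at all 6, and 5 passed its IDR threshold. Over all ZNF genes with a known start, 76 of 437 promoters were gained, 17.4% (95% Wilson interval 14.1 to 21.2%), against 8.37% of all 15811 promoters (1324 gained). On chromosome 19, where many KRAB zinc finger genes are clustered, 50 of 219 ZNF promoters were gained, 22.8%, and 86 of the other 966, 8.90%. At equal list length, a setting added after seeing the data, 21 of the 437 were gained (4.81%) and 130 of all (0.822%). A promoter is called gained here when both lists of the truncated protein and neither wild-type list have a peak within 1 kb of the start. The ZNF promoters of chromosome 19 had a peak in 33.3% and 20.1% of cases in the wild-type libraries and in 61.2% and 77.6% in those of the truncated protein, beside 37.1%, 35.5%, 49.6% and 63.9% of all promoters.

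The wild type of the SOX2 experiment is a control that the rule did not use. Its list had a peak at an IDR (irreproducible discovery rate) of 0.05 or less in 26.7% of gained regions (26.1 to 27.2%), and an entry of any IDR in 42.6%. The same shares were 22.6% and 35.5% for all regions, 67.4% and 81.1% for lost regions and 86.2% and 96.7% for regions open in all 4. The labels of that wild type also name the SOX2 cell line, and its list joins 2 samples.

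The share in this list differed by position. At gene starts, 77.2% of the 1234 gained regions passed the threshold there (74.8 to 79.5%) and 95.1% had an entry, against 23.8% (23.3 to 24.4%) and 39.7% of the 22253 gained elsewhere. Of the 13470 gained regions without an entry, 57.4% of all gained, 0.453% were within 1 kb of a start. These 61 promoter regions were led by MOBP and LARP1, followed by MAOA, the monoamine oxidase A gene on chromosome X, with folds of 4.82 and 7.78. Behind them came C4orf54 (5.08 and 4.85) and ANO3 (5.0 and 6.63), a gene of the anoctamin membrane proteins. Gains at promoters were thus, in most cases, regions that another U2OS wild type also called. The same share among all regions at gene starts is not given here, so this may not be particular to gained ones.

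By strength the share called in that list was 24.5% in the weakest group of gained regions, 30.2% in the middle group and 18.7% (17.3 to 20.2%) in the strongest. The regions without an entry were as wide as the rest, with a median of 577 bp against 575 bp for those that passed the threshold. Their folds had medians of 3.90 and 4.09, against 3.8 and 4.12. In the SOX2 list 7.38% of the regions without an entry passed the IDR threshold and in the SOX2-FOXA2 CTD fusion list 10.2%. No entry at all was found for 82.3% and 77.8% of them in these lists. Of all gained regions 30.6% and 32.0% passed the threshold there, and of all regions 23.5% in each list. These regions were chosen for having no entry in the wild type of the same experiment, so low shares in its other lists follow in part from the choice.

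**Figure D3:**
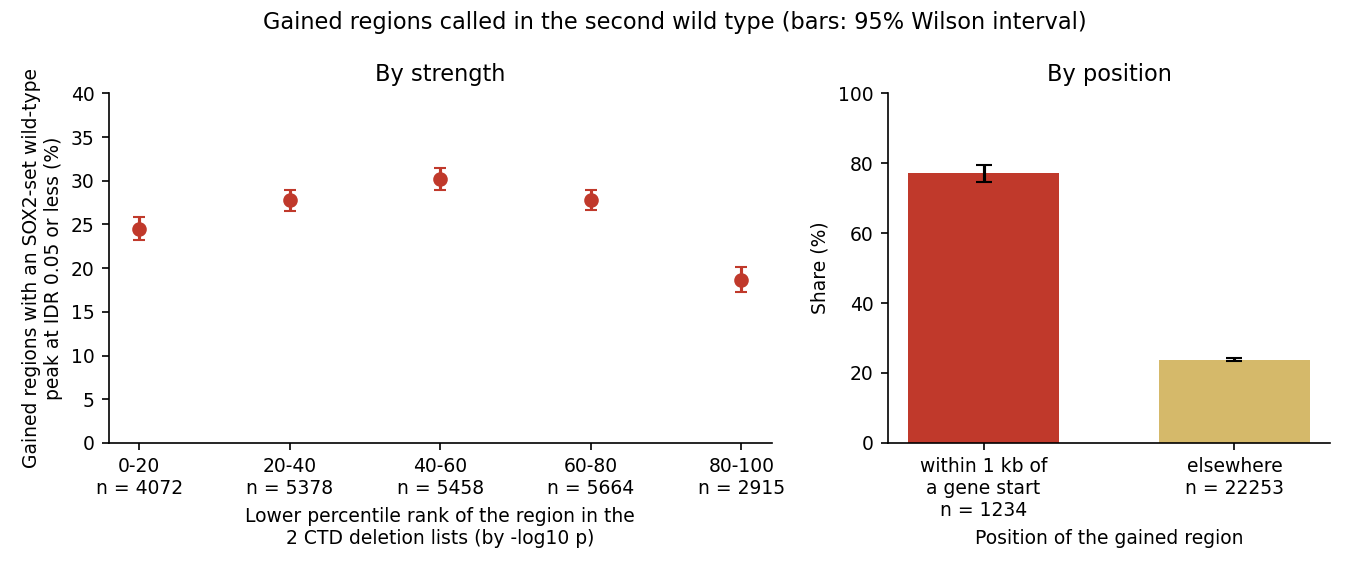
Share of gained regions with a peak at IDR 0.05 or less in the wild-type list of the SOX2 experiment, by strength of the region (left; lower percentile rank in both lists of the truncated protein) and by position (right), with 95% Wilson intervals that cover counting error only. The share is 18.7% in the strongest group and 77.2% at gene starts against 23.8% elsewhere.

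Most gained regions had no other within 10 kb. The next region along the chromosome was also gained for 14% of them, beside 12.8% of all regions being gained, and at equal list length for 9.62% beside 6.8%. Without replicate 1 of the truncated protein this share was 68.3%, but 119133 regions then counted as gained. Far more of all regions were gained in that setting, so the 68.3% cannot be set beside the 14%. When gained regions at most 10 kb apart were linked, 84.9% stood alone, against 88.3% of regions open in all 4 libraries, and 1 group reached 5 regions. That group spans chr12:45674468-45704105, 25.6 kb from ARID2, a subunit gene of the PBAF remodelling complex, with folds of 3.28 to 4.78 in replicate 1 and 2.75 to 5.94 in replicate 2. Regions open in all 4 libraries formed 16 such groups.

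Groups of 4 gained regions lay in CTNNB1, the beta-catenin gene, SLC9C2, ARAP3 and SMURF2, an E3 ligase gene of TGF-beta signalling. Others lay 12.7 kb from TOMM7, a mitochondrial import gene, 222 kb from the sodium-calcium exchanger gene SLC8A1 and 362 kb from DCUN1D4. The CTNNB1 group, chr3:41198884-41217686, had median folds of 3.62 and 3.69, and 3 of its 4 regions were called in both full-length lists. That number was 3 for the SMURF2 group, 2 for those of SLC8A1 and ARAP3 and 1 for that of SLC9C2. It was 0 for the groups of TOMM7 and DCUN1D4, and 1 of 5 for the group near ARID2. Of the groups of 3, the first by position lay in PATJ, a polarity complex gene, and in ST6GALNAC5. With links of up to 50 kb there were 307 groups of at least 5, which held 7.44% of gained regions, against 75 groups with 8.53% of the regions open in all 4. None reached 5 at equal list length with either distance.

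The genes with the most gained regions in the gene and 50 kb around it were long ones. EYS, a photoreceptor gene of 1987 kb, had 28 of its 158 regions gained. The synaptic scaffold gene DLG2 had 24, the neurexin gene NRXN3 21, NRG3, a neuregulin gene, 23, and the splicing factor gene RBFOX1 23. AGBL4 had 22, the cGMP-dependent kinase gene PRKG1 21, LINGO2 20 and the catenin gene CTNNA3 20. The promoter of NRXN3 was gained, and those of EYS, DLG2, RBFOX1, LINGO2 and CTNNA3 had no peak in any of the 4 libraries.

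These counts moved with gene length. At least 1 gained region was found for 57.5% of genes up to 10 kb and for 95.3% of genes over 300 kb, while the mean per 100 kb of gene and flanks was 0.852 and 0.827. Of the genes named here, RBFOX1 had 0.894 per 100 kb and NRG3 had 1.90. The widest gained regions were 63.0 kb from the metal transporter gene SLC39A8 (2490 bp), in the potassium channel subunit gene KCNMB2 (2237 bp), at CATSPERG (1977 bp), 89.6 kb from SOX3 (1976 bp) and 49.5 kb from POTED (1927 bp). The KCNMB2 region, with folds of 5.88 and 5.31, was in neither full-length list.

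The FOXA loci came next. A peak within FOXA2 itself was present in all 4 libraries, so the gene's locus counts as neither gained nor lost. It spanned chr20:22581848-22582527 with a fold of 5.19 in wild type replicate 1 and chr20:22581827-22582860 with 14.7 in wild type replicate 2. In the libraries of the truncated protein it was 6.94 at chr20:22581782-22582925 and 7.07 at chr20:22581754-22583047. Within their own lists these ranked at the 67.2, 98.1, 98.9 and 99.8 percentiles. The wild-type list of the SOX2 experiment had no peak at that position and had a FOXA2 peak at chr20:22583822-22585189 instead, while the list of the SOX2-FOXA2 CTD fusion had one at chr20:22581797-22582528. The full-length lists had peaks there with folds of 5.76 and 44.3, and the SOX2 list had none. A peak at this position was thus called in all 6 lists of the FOXA2 experiment, those labelled wild type included, and does not separate the labelled groups. Reads from a construct and from the endogenous gene cannot be told apart in peak lists, and whether the wild-type libraries hold construct reads was not tested.

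FOXA1 and FOXA3 promoters were open in all 4 libraries. FOXA1 had 1 gained region, 14.9 kb from its start at chr14:37580069-37580650, with folds of 4.77 and 4.09, and FOXA3 had 1 as well, 22.3 kb from its start, with 5.81 and 4.62. The FOXA3 region lies within 1 kb of the start of another gene and passed the IDR threshold in the wild type of the SOX2 experiment. The FOXA1 region had an entry there that failed it. Of 24 other forkhead genes 19 had a gained region nearby, led by FOXP1 with 8, all in the gene body, FOXJ3 with 5 and FOXJ2 and FOXN3 with 4. The FOXD1 promoter was gained, with folds of 4.62 and 3.13.

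Gene lists were read against all 19970 protein-coding genes, of which 67.8% had at least 1 gained region in the gene or 50 kb around it, with a median of 1. The share rises with gene length, as given above, and the median length was 24.2 kb for all genes, 6.23 kb for the definitive endoderm list and 59.9 kb for the TEAD and YAP list. Of 16 genes of hepatic transcription factors, 13 had one (81.3%). Their median length was 46.2 kb, and with flanks of 10 kb their share was 37.5%, against 40.1% of all genes. NR1H4, the bile acid receptor gene, had 5, with folds up to 5.56 in replicate 1, and 4 of the 5 had no entry in the wild type of the SOX2 experiment. HNF4G had 5 too, and NR5A2 had 3. At the starts of ONECUT1, TF and FN1 each list of the truncated protein had a peak, but in different regions, so these promoters count as gained without a gained region.

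Plasma protein genes of liver stood at 13 of 22 (59.1%), with a median gene length of 11.8 kb. Of all genes up to 10 kb 57.5% had a gained region, and of those of 10 to 30 kb 63.2%. The fibrinogen genes FGA, FGB and FGG share a single gained region at chr4:154602693-154603225, with folds of 4.77 and 6.38. It ranked high enough in both lists to stay gained at equal list length, and it had no entry in the other wild type. PLG, the plasminogen gene, had 3, of which the nearest lies 2.2 kb from the start with 5.13 and 4.81, and TF, the transferrin gene, had 3. APOA1 and APOC3 share 3, and ALB had 1, 23.3 kb from its start, with 3.15 and 2.92. Of those shared by APOA1 and APOC3, chr11:116787831-116788487 and chr11:116791007-116791674 each lie within 1 kb of the start of another gene. No plasma protein promoter was open in all 4 libraries, and 14 of 16 had no peak in any.

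Hepatic metabolic genes, 11 of 16 (68.8%), were close to all genes. PPARGC1A, a coactivator gene of gluconeogenesis, had 3 regions and a gained promoter (3.94 and 4.66), ABCC2 had 3 and CPS1 had 2. Of 14 definitive endoderm genes 7 had a gained region (50.0%). EOMES, a T-box gene of early endoderm, had 4, with up to 5.64 in replicate 1. OTX2 and KIT had 3 each and NODAL had 2, the stronger at chr10:70387425-70388025 with 6.38 and 5.56, and both passed the IDR threshold in the wild type of the SOX2 experiment.

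Among genes of foregut, pancreas and lung, 8 of 14 had one (57.1%), with 2 each at NKX2-2 and INS. NKX2-1, a lung and thyroid regulator, had 1, 8.5 kb from its start with 7.38 and 5.85. This region ranked high enough in both lists to stay gained at equal list length, and it had no entry in the other wild type. Among notochord and floor plate genes, 9 of 12 (75%), SPON1 led with 6. Of hormone-dependent FOXA targets 8 of 12 had one (66.7%): KLK3 and ESR1 had 3 each and PGR had 2. The GATA3 promoter was gained (4.17 and 4.59).

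Lists of the cell's own lineage and of other cell types moved over the same range. Mesenchymal genes stood at 11 of 14 (78.6%), with 4 regions at ZEB1, 3 at CDH2 and FN1 and a gained promoter region at PRRX1 (3.77 and 3.54). Osteoblast genes stood at 10 of 17 (58.8%), with 4 at RUNX2, 3 at IBSP and a gained MSX2 promoter (3.47 and 6.40). TEAD and YAP genes stood at 16 of 19 (84.2%), the highest share with 50 kb flanks, led by TEAD1 with 6 and STK3 with 4, and gained promoters at WWTR1 (3.45 and 3.51), AMOTL1 (3.47 and 5.56) and AJUBA (4.42 and 3.94). AP-1 genes stood at 10 of 15 (66.7%), with 6 at JUNB, whose promoter was gained (2.92 and 3.63), as was that of MAF (3.57 and 4.91).

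Blood cell genes stood at 10 of 12 (83.3%), epithelial genes at 10 of 16 (62.5%) with 4 each at CDH1 and EPCAM, and ribosomal protein genes at 22 of 30 (73.3%) with 4 each at RPL18 and RPS2. Neural genes were at 8 of 12 (66.7%), with a gained NES promoter (3.23 and 3.91), and pluripotency genes at 5 of 9 (55.6%), with a gained DNMT3B promoter (2.56 and 4.07). At equal list length 13% of all genes had a gained region, and the order of the lists changed: osteoblast genes were then highest at 23.5%, definitive endoderm genes followed at 21.4%, and blood cell and pluripotency genes were at 0. With flanks of 10 kb mesenchymal genes were highest (71.4%, TEAD and YAP genes 63.2%, all genes 40.1%), and with 100 kb osteoblast and hepatic transcription factor genes were at 100% (all genes 83.8%). Shares of lists of 9 to 30 genes differ by few genes, and no list was tested. Of the 12 listed promoters with a gained region of their own, 8 passed the IDR threshold in the wild type of the SOX2 experiment, 3 had an entry that failed it and WWTR1 alone had none.

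**Figure D4:**
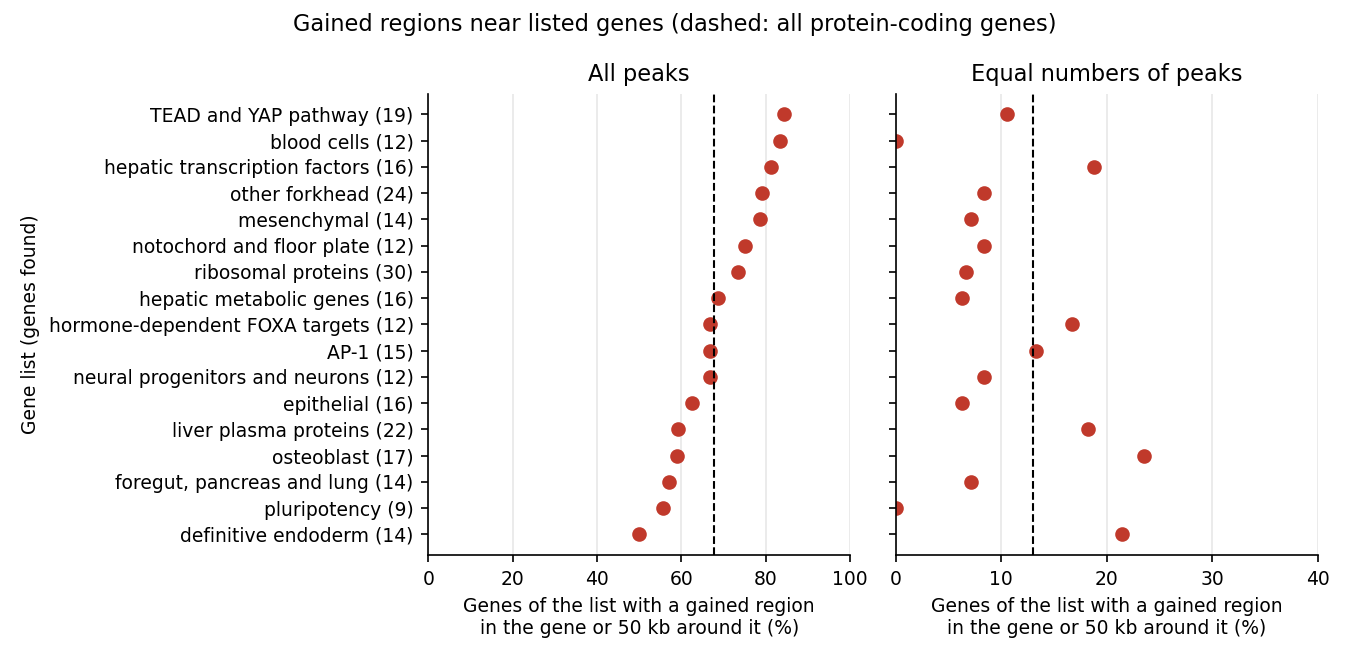
Share of each gene list with at least 1 gained region in the gene or 50 kb around it, with whole lists (left) and at equal list length (right); the number of genes found is in parentheses and the dashed line marks all protein-coding genes (67.8% and 13%). Lists above the line on the left, TEAD and YAP genes and blood cell genes among them, are in part below it on the right.

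Promoters of marker lists were used as a check of the cell type. With a known start, 3 of 11 osteoblast promoters had a peak in wild type replicate 1, 3 in wild type replicate 2, 3 in the first library of the truncated protein and 5 in the other. For 9 mesenchymal promoters the numbers were 3, 2, 5 and 8. None of 6 blood cell promoters had a peak in any of the 4 libraries, and of 16 plasma protein promoters 0, 0, 1 and 2 had one. Over all promoters 37.1%, 35.5%, 49.6% and 63.9% had a peak, so such numbers move with list length. In both wild-type libraries the osteoblast and mesenchymal lists were below the share of all promoters, so these counts do not mark the cell's own lineage.

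Chromosomes differed in the share of their regions that was gained. The share was highest on chromosome X, 584 of 3450 regions or 16.9% (15.7 to 18.2%), next on chromosome 4 (15.3%), and lowest on chromosome 22 (9.14%), with a median of 12.7%. X was also highest at equal list length, 88 gained and 9 lost, 11.8% against a median of 6.69%, and for gained regions without an entry in the wild type of the SOX2 experiment, 9.97% against 7.40%. No lost region lay on X with whole lists. X had few regions of any kind, with 3.74 gained per Mb, the lowest density, and 118 open in all 4 libraries.

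The wild-type lists themselves differed on X: it held 1.88% of the peaks of replicate 1 and 0.785% of replicate 2, against 1.66% and 2.08% in the lists of the truncated protein. The share of wild-type replicate 2 was also high on chromosome 13 (3.77% against 2.31% in replicate 1) and on chromosome 22 (3.17% against 1.87%), where shares gained were low. The part of these differences between wild-type libraries in the order of chromosomes was not tested. Chromosome 19 had a share gained of 12.5%, near the median, and the lowest share gained without an entry in the other wild type, 2.74%, and 78.1% of its gained regions had one.

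**Figure D5:**
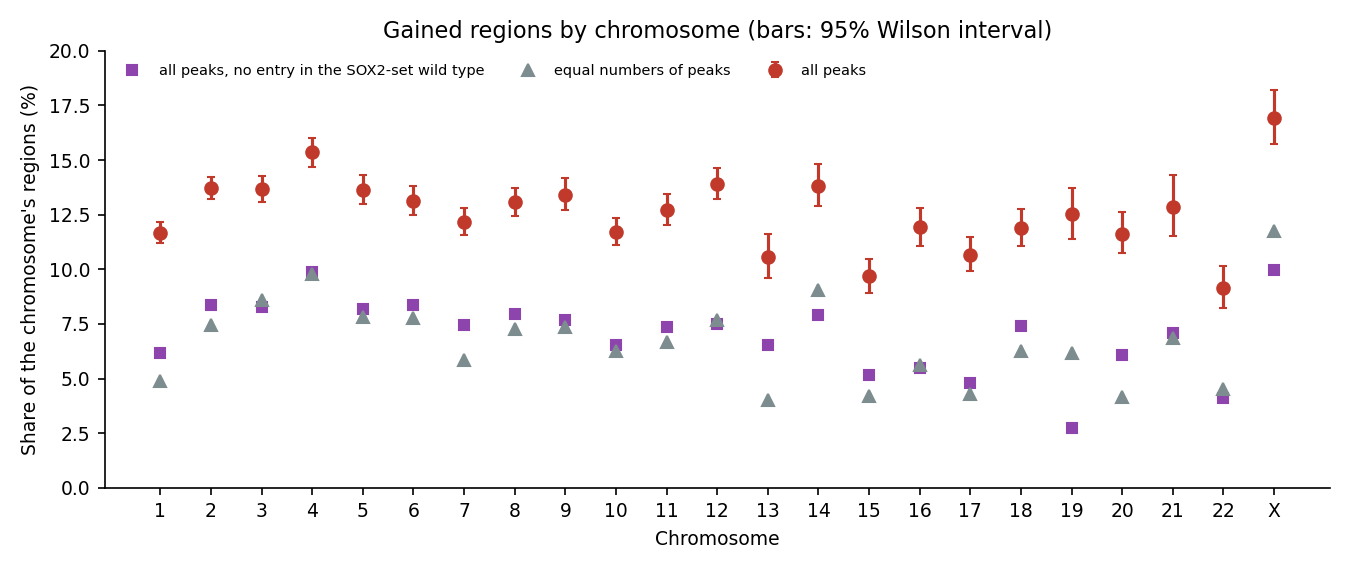
Share of each chromosome's regions that was gained, with whole lists (circles, 95% Wilson intervals), with whole lists and no entry in the wild-type list of the SOX2 experiment (squares), and at equal list length (triangles). Chromosome X is highest in all 3, at 16.9%, 9.97% and 11.8%, and chromosome 19 is lowest in the squares at 2.74%.

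With whole lists few regions were lost, and some lay far from genes. The 175 become 1694 at equal list length, and 3860 or 2271 when wild type replicate 1 or 2 is left out. The median width of the 175 was 445 bp, between the 289 bp of all regions and the 572 bp of gained ones, and the wild-type peaks in them had median folds of 4.50 in replicate 1 and 5.61 in replicate 2. Over 1 Mb from any protein-coding gene lay 27 of the 175, or 15.4%, against 3.22% of gained regions, 4.89% of all and 6.37% of those open in all 4. At equal list length the shares were 8.91% of lost and 7.70% of all regions. Of the 175, 128 were also lost at equal list length, which their ranks fix in advance. A lost region has no peak of the truncated protein, and the cut keeps every peak of wild type replicate 1. Which regions stay lost is thus set by their rank in wild type replicate 2. Of the 175, 49 were called in both full-length lists.

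The 10 highest lost regions include 5 of that kind. The first, at chr1:123476874-123477318, had folds of 5.14 in wild type replicate 1 and 8.42 in replicate 2 and lies 2.01 Mb from the nearest gene of the RefSeq table, LINC02798. A second one on that chromosome, at chr1:122602885-122603349, had 4.89 and 7.48. The others lay 2.07 Mb from ZNF337 on chromosome 20, 1.93 Mb from ZNF37A on chromosome 10 and 1.29 Mb from TUBA3C on chromosome 13, and none of the 5 passed the IDR threshold in the wild type of the SOX2 experiment. How uniquely reads align at these positions was not tested.

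Others of the 10 were in MAD1L1, a spindle checkpoint gene (5.30 and 10.9), at the start of the hair keratin-associated gene KRTAP21-3 (4.90 and 6.55), 99.2 kb from CNTNAP3B (5.37 and 6.55) and 294 kb from TRIML1 (3.81 and 6.55). Of these, MAD1L1, KRTAP21-3 and CNTNAP3B regions passed the IDR threshold in the other wild type. Among the listed genes, lost regions were found near GRHL1, ZEB2 and PRRX1 only, 1 at each, and 0.916% of all protein-coding genes had one.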

How the data were processed

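ATAC-seq peak lists of U2OS cells were used as deposited, 1 list per library for wild type and FOXA2 without CTD and 1 list per group for the SOX2 experiment. The submitters' processing notes name Trim Galore, FastQC 0.10.1, Bowtie2 2.4.4, SAMtools 0.1.18, MACS2, deepTools 2.4.1 and hg38, with no role or order, and the thresholds of peak calling are not given in the sources used here. Each deposited peak has a fold enrichment (a ratio over local background), −log10 p and −log10 q values, a summit offset and a score that is a rounded multiple of −log10 p or −log10 q, all computed by the authors. In the lists of the SOX2 experiment the deposited score is a scaled IDR. Fold and −log10 p depend on depth, which peak lists do not give, and served only for ranks, filters and descriptions inside a single list.

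Peaks on chromosomes 1 to 22 and X were merged with Python 3.11.15, NumPy 2.4.6 and pandas 2.3.3, and plotted with matplotlib 3.10.9. The merging and counting were tested on simulated data. Genes, starts and sequences are those of RefSeq GRCh38.p14, with 19970 protein-coding genes, of which 15811 have a start in the promoter table. A region was near a start within 1 kb, and near a gene in its body or 50 kb on each side. A region near a gene can therefore lie at the start of another gene. Intervals are 95% Wilson intervals and cover counting error only. Exon and intron annotation was not used here.

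The genes named are those of the 12 highest gained regions, the 12 highest at a start and the 10 highest lost regions, by the lower percentile rank of −log10 p in both libraries, those of the 5 widest gained regions, the 10 largest groups and the 10 genes with the most gained regions, and in each gene list the members with a gained promoter and up to 4 with the most gained regions. Genes outside this rule (MAGI1, FECH, DCLRE1C, F3, MAOA, C4orf54, ANO3, the fibrinogen genes, ALB, NKX2-1, GRHL1, ZEB2 and the ZNF class) were chosen after their values were seen. Some genes that the rule names are not reported here. The members and the gene lists were chosen with earlier results of these data known.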

Additional observations from a re-analysis of the deposited data

How the results depend on the processing

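The number of gained regions, 23487 with whole lists, was 6485 with a common −log10 p threshold, 2921 at equal list length and 3234 at equal length by fold, and 13470 with the wild type of the SOX2 experiment as a further control. Leaving out 1 library gave 27326 (without wild type replicate 1) to 119133 (without replicate 1 of the truncated protein). Lost regions, 175, numbered 832, 1694 and 2140 under the first 3 of these settings, 513 with windows around the summits, and 438 to 3860 with 1 library left out. Only with the 3 lists that have mitochondrial peaks, at equal length, did losses exceed gains, 8754 against 4919; that setting sets 1 wild-type list against 2 of the truncated protein, which by its construction asks more of a gain than of a loss. With these 3 lists whole, 2315 regions were lost.

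The share of gained regions at a start, 5.25%, was 8.48% with at least 50% of the region covered, 5.17% with the common threshold, 4.21% at equal length, 4.27% at equal length by fold, 6.66% with summit windows, 6.54% with the lists that have mitochondrial peaks, 7.64% with either end of a gene, 4.78% for regions over 1 kb from a wild-type peak and 0.453% with the further control. It was 3.65 to 7.69% with 1 library left out. The share called in the wild type of the SOX2 experiment, 26.7%, was 34.0% with 50% covered, 42.6% with all entries, 21.4% at equal length, 21.8% by fold, 30.3% with summit windows, 30.9% with the mitochondrial lists and 15 to 35.0% with 1 library left out. The median width, 572 bp, was 653 bp with the common threshold, 692 bp at equal length, 687 bp by fold, 261 bp with summit windows, 646 bp in the union with the full-length lists and 257 to 594 bp with 1 library left out. Groups of 5 or more gained regions numbered 1, 307 with links of 50 kb and 0 at equal length. The share whose next region was gained, 14%, was 16.4 to 68.3% with 1 library left out. It rose with the number of regions gained and was highest without replicate 1 of the truncated protein, where 119133 were gained. The causes were not tested.

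With the replicate number as a block, a region gained in both same-numbered pairs is by construction a region gained in both libraries, so the block gave the same 23487 gained and 175 lost regions. The labels do not say that a number marks a shared culture or day. The settings by fold, with either end of a gene, over 1 kb from a wild-type peak and with the mitochondrial lists at equal length were chosen after seeing the data. Read depth is not known from these lists, so a region without a peak is one not called at the depth and threshold of its list.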
